A study of Mus musculus with 6 samples.

Results

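The genes described are the ligand, receptors, SMAD proteins and SMAD inhibitors of transforming growth factor beta (TGF-beta) signalling: Tgfb1, Tgfbr1, Tgfbr2, Smad2, Smad3, Smad4, Smad7, Ski and Skil. They were taken by symbol, 9 rows of the 54347 in the deposited table, and each symbol stood on 1 row. The samples are RNA from cultured microglia, the resident macrophages of the brain, of C57BL/6 mice aged 2 to 3 days, with 3 libraries from Plcg2+/+ pups and 3 from their Plcg2-/- littermates, labelled as null for phospholipase C gamma 2, an enzyme that signals below immune receptors. Both genotypes were grown in mixed glial cultures with the myeloid growth factor GM-CSF at 5 ng/mL and 10% serum, shaken off on day 12 to 13 and kept for 72 h or longer in GM-CSF at 0.5 ng/mL with 1% serum, so no group was without GM-CSF. The cells came off an astrocyte layer, and the labels do not say whether a replicate is a separate pup or culture. P-values therefore measure the spread between these libraries, part of which may be technical; within each genotype the libraries differed in sex-linked transcripts, given with the other library values, so they were not all repeats of 1 RNA sample. The sources used here do not name the part of Plcg2 that was removed. Its transcript stood at 45.2, 39.7 and 54.9 TPM in Plcg2+/+ 1 to 3 and 16.0, 16.7 and 16.1 TPM in Plcg2-/- 1 to 3, so the targeted gene fell (log2 fold change -1.45 ± 0.14 SE; limma adjusted p = 0.00141) but was still read in Plcg2-/- cells.

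TGF-beta is secreted in a latent form and must be freed from its propeptide before it binds. The free ligand joins the type II receptor (Tgfbr2) to the type I receptor (Tgfbr1), which phosphorylates SMAD2 and SMAD3; these enter the nucleus with SMAD4 and act on target genes. SMAD7 blocks the type I receptor, and SKI and SKIL (also called SnoN) hold SMAD complexes in a repressed state. In the brain this pathway is known for keeping microglia in their resident, homeostatic form. A surface protein found on microglia, though not on them alone, NRROS (gene Nrros), holds latent TGF-beta 1 for activation.

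Tgfbr1 and Tgfbr2 transcripts stood in opposite directions in Plcg2-/- cells, though neither passed the test over all genes (limma adjusted p = 0.0559 and 0.0698). Nrros was the most abundant of the latency genes that changed. Upstream sequence is given for these 3 genes. The 250 bases before their start sites are printed 5′ to 3′ from RefSeq (GRCm38.p6), in which 5 of the 9 members were matched by symbol. Capitals mark CAGAC or GTCTG, the short SMAD-binding box on either strand, and GGGCGG or CCGCCC, the GC box on either strand. These are the windows chr4:47352972-47353221 (plus strand), chr9:116175364-116175613 (minus strand) and chr16:32165595-32165844 (minus strand).
Tgfbr1: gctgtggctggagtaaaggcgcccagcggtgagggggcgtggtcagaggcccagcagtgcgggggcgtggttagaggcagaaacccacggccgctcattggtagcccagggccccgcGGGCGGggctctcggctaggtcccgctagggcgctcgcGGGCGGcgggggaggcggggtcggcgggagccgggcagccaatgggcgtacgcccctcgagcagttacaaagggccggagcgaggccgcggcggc
Tgfbr2: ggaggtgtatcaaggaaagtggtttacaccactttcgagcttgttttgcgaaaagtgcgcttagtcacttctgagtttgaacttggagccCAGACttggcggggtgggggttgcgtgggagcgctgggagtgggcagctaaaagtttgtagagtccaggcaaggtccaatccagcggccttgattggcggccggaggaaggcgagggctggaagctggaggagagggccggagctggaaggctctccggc
Nrros: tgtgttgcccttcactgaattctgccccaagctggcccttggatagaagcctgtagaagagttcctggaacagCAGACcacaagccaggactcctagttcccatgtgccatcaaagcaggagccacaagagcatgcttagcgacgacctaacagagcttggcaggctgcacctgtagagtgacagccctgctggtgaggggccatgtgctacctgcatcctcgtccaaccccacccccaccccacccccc
The Tgfbr1 window held 2 GC boxes and no SMAD box, and 74.8% of its bases were G or C against a median of 52.4% over 32851 windows. The windows of Tgfbr2 and Nrros held 1 SMAD box each and no GC box. A SMAD box is found in 42.2% and a GC box in 32.7% of all such windows. The palindrome GTCTAGAC, the long form of the SMAD element (0.167% of windows), was not among the letters of any of the 3 windows, searched on both strands. It holds neither CAGAC nor GTCTG, so the capitals would not mark it.

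All values are TPM (transcripts per 1000000), which are scaled per length and to 1 total in each library, so the depth behind a value is unknown. Mitochondrially encoded genes took 13.6 to 17.3% of TPM in Plcg2+/+ and 5.00 to 8.68% in Plcg2-/-, where a two-sided exact permutation test gave p = 0.1, its minimum with 3 against 3, and the median log2 fold change of all 12652 genes tested was 0.19, and near 0 after median-of-ratios scaling. Of 10 listed macrophage markers, all were tested, and 2 rose and 1 fell in Plcg2-/- (over all genes tested 15.6% rose and 5.31% fell). Aif1 and Fcer1g rose, from 19.0 ± 9.51 to 99.6 ± 52.3 and from 1460 ± 221 to 2465 ± 194 TPM (SD, n = 3 each, limma adjusted p = 0.0333 and 0.0192). Itgam fell from 429 ± 76.5 to 81.8 ± 15.9 TPM (limma adjusted p = 0.000946). Summed, these markers were abundant in every library, at 7814 to 9137 TPM in Plcg2+/+ and 9558 to 12566 in Plcg2-/- (two-sided exact permutation p = 0.1). The part of this gap in the results was not tested. In contrast, Tmem119, Sall1 and Siglech, which define microglia in the brain, were at 0 to 1.47 TPM. Astrocyte markers summed to 30.4 to 60.5 TPM in Plcg2+/+ and 43.0 to 59.6 in Plcg2-/-, oligodendrocyte lineage markers to 50.1 to 116 and 47.6 to 84.9, endothelial markers to 16.4 to 24.0 and 19.7 to 29.1, neutrophil and lymphocyte markers to 18.8 to 75.0 and 24.1 to 46.9, neuronal markers to 3.08 to 10.9 and 4.27 to 9.84, and fibroblast and mural markers to 0.772 to 1.94 and 0.451 to 3.07, each overlapping between genotypes. Of these lists 14 genes were tested and 2 rose and 2 fell (over all genes tested 15.6% rose and 5.31% fell). Mean levels of Aldh1l1 and Kdr rose, from 12.3 to 28.3 and from 5.89 to 19.3 TPM. Those of Cspg4 and Flt1 fell, from 9.62 to 0.471 and from 12.5 to 3.65 TPM. In each of these genes the groups did not overlap, which the sums do not show. Y-linked transcripts (Ddx3y, Eif2s3y, Kdm5d and Uty) summed to 58.6 to 112 TPM in Plcg2+/+ 2, Plcg2+/+ 3 and Plcg2-/- 1 and to less than 1 in the other 3 libraries, and Plcg2-/- 1 also had 18.4 TPM of Xist; the genotypes are thus unbalanced in sex-linked transcripts, and results are given with a Y-linked covariate where that ends a call. In bulk RNA, fewer cells of a kind and less transcript per cell cannot be told apart.

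No member of the pathway passed the test over all genes, though the inhibitors and the type I receptor stood lower and the type II receptor higher in Plcg2-/- libraries. Of the 9 members, 8 reached a mean of 1 TPM and were tested. None had a limma adjusted p below 0.05, a threshold that 20.9% of all genes tested passed (15.6% higher and 5.31% lower); 6 of the 8 had an unadjusted p below 0.05, as did 37.6% of all genes. With the replicate number as a block, 1 member was called higher and 1 lower (Tgfbr2 and Tgfbr1), where 26.1% of all genes were called, 19.6% higher and 6.44% lower. After median-of-ratios scaling, which sets the median gene near 0, 3 members were called lower (Tgfbr1, Ski and Skil) and 0 higher, where 7.85% of all genes were called lower and 7.71% higher (15.6% in all). With the block and that scaling together 1 was higher (Tgfbr2) and 3 lower, beside 17.6% of all genes (8.73% higher and 8.91% lower), and with the Y-linked covariate 0 were called, beside 10.7% (7.44% higher and 3.25% lower). In 4 of the 8 tested members (Tgfbr1, Smad7, Ski and Skil) the 3 Plcg2-/- values all lay below the 3 Plcg2+/+ values, which held for 10.9% of all genes tested, and in 0 of the 8 did they all lie above, which held for 32.4% (43.3% in either direction). The median log2 fold change of the tested members was -0.07, beside 0.19 for all genes tested; it was 0.11 with no filter, which adds Smad3, and with a minimum of 5 TPM, which drops Smad7, and -0.28 after median-of-ratios scaling, so its sign depended on the setting. On deposited TPM the 3 pairs of libraries with the same number differed in 1 direction in all 9 members, as in 61.8% of all genes tested (45.3% upwards and 16.5% downwards), upwards for Tgfb1, Tgfbr2, Smad2, Smad3 and Smad4 and downwards for Tgfbr1, Smad7, Ski and Skil, as the plot of members by library shows.

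**Figure D1:**
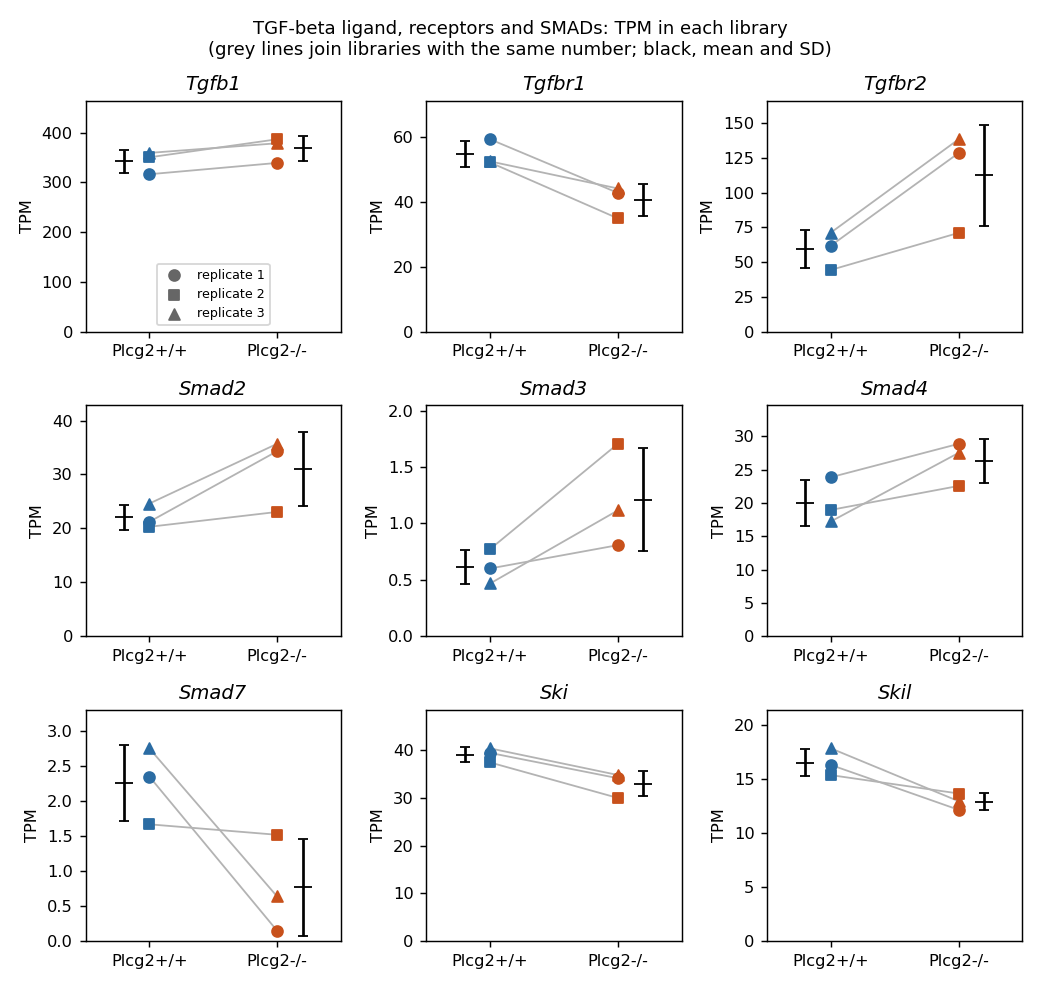
TPM (vertical axis, from 0, a separate scale in each panel) of the 9 members in the 3 Plcg2+/+ (blue) and 3 Plcg2-/- (orange) libraries; symbols give the replicate number, grey lines join libraries with the same number, and black bars are the mean and SD of 3 libraries. Tgfbr1, Smad7, Ski and Skil are lower in each Plcg2-/- library than in any Plcg2+/+ library, and Tgfbr2 is higher within each numbered pair.

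Tgfb1 (ENSMUSG00000002603.15, GRCm38 chromosome 7, 25687002 to 25705077, plus strand), the gene of the ligand, was by far the most abundant member. It was 316, 350.4 and 359 TPM in Plcg2+/+ 1 to 3 and 339, 387 and 379 TPM in Plcg2-/- 1 to 3. The groups overlapped, and the lowest library of each genotype was the one numbered 1. Its level exceeded that of 97.3% of tested genes in Plcg2+/+. The log2 fold change was 0.11 ± 0.11 (SE; limma adjusted p = 0.535), with a 95% interval of -0.16 to 0.37, and its sign turned under median-of-ratios scaling with and without the block (-0.11 in both), quantile normalization (-0.12) and rescaling without mitochondrially encoded genes (-0.03). The other 2 TGF-beta ligand genes were close to 0: Tgfb2 was at 0.219 ± 0.00797 TPM in Plcg2+/+ libraries and 0.285 ± 0.137 in Plcg2-/-, and Tgfb3 at 0.120 ± 0.0457 and 0.0542 ± 0.0123 (SD, n = 3 each).

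The receptors stood in opposite directions. Tgfbr1 (ENSMUSG00000007613.15), the type I receptor kinase, is encoded on chromosome 4 from 47353222 to 47414931, plus strand. It was 59.2, 52.1 and 52.4 TPM in Plcg2+/+ 1 to 3 and 42.7, 34.9 and 44.1 TPM in Plcg2-/- 1 to 3, so that each Plcg2-/- value was below the lowest Plcg2+/+ value. Its log2 fold change was -0.42 ± 0.13 (SE; limma adjusted p = 0.0559, and 0.0434 with the replicate block). Relative to the median gene the difference was larger: it fell by 0.64 on the log2 scale after median-of-ratios scaling (limma adjusted p = 0.0137), and over genes with a mean of at least 5 TPM it also passed (limma adjusted p = 0.0462). Without any 1 library, its limma adjusted p on deposited TPM was 0.0752 to 0.159.

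Tgfbr2 (ENSMUSG00000032440.13), the type II receptor that binds the ligand first, is encoded on chromosome 9 from 116084293 to 116175360, minus strand. It was 62.0, 44.5 and 71.3 TPM in Plcg2+/+ 1 to 3 and 128, 71.1 and 138 TPM in Plcg2-/- 1 to 3. Both libraries numbered 2 were the lowest of their genotype, and Plcg2-/- 2 fell just under the highest Plcg2+/+ library, so the groups overlapped by a narrow margin. The log2 fold change was 0.88 with an SE of 0.29 (limma adjusted p = 0.0698), and with the replicate block the SE was 0.12 and the limma adjusted p 0.00861. The block, which compares libraries within a number, gave pair differences of 1.04, 0.66 and 0.95 on the log2 scale. Without Plcg2-/- 2 it also passed in the fit without the block (log2 fold change 1.18, limma adjusted p = 0.0236), whereas without any other library that p was 0.0706 to 0.219. After median-of-ratios scaling its log2 fold change was 0.67 (limma adjusted p = 0.124, and 0.0206 with the block and that scaling together).

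Because both receptors sit in the same complex, their ratio within a library was also computed; it does not depend on how libraries are scaled. Tgfbr2 over Tgfbr1 was 1.05, 0.854 and 1.36 in the Plcg2+/+ libraries and 3.01, 2.04 and 3.14 in the Plcg2-/- libraries. The mean ratio was 1.09 ± 0.256 in Plcg2+/+ and 2.73 ± 0.601 in Plcg2-/- (SD, n = 3 each), and the groups did not overlap, as the scatter of both receptors shows. Near-equal transcript levels in Plcg2+/+ cells thus stood against an excess of the type II receptor transcript in every Plcg2-/- library. Tgfb1 over Tgfbr1 did not overlap between genotypes, at 5.34, 6.73 and 6.86 in Plcg2+/+ and 7.94, 11.1 and 8.59 in Plcg2-/-. It has the same denominator, Tgfbr1, whose own groups did not overlap, whereas those of Tgfb1 did. Smad2 over Smad4 averaged 1.13 ± 0.274 in Plcg2+/+ and 1.17 ± 0.138 in Plcg2-/- (SD), with overlapping groups. The receptor ratio was 1 of 5 ratios between members and was singled out after the values were seen, so it is given with no test.

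**Figure D2:**
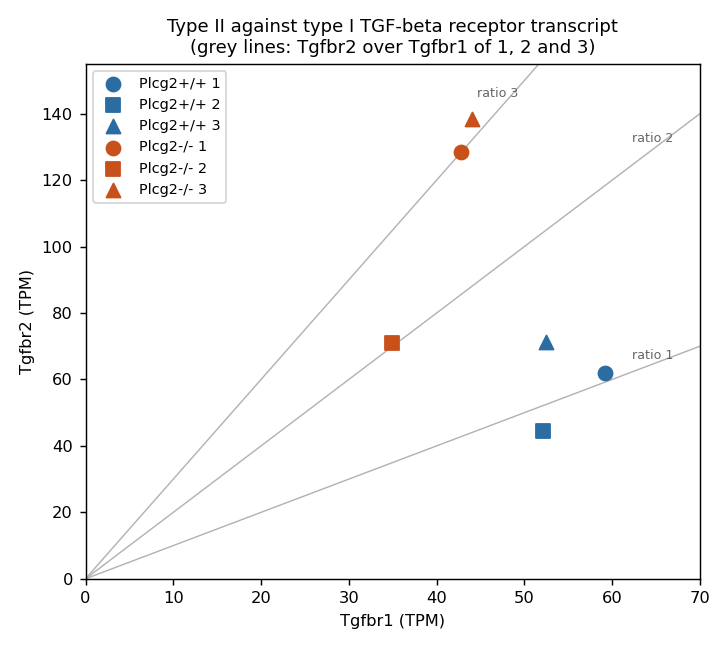
Tgfbr2 (vertical axis, TPM) against Tgfbr1 (horizontal axis, TPM) in each of the 6 libraries; grey lines mark ratios of 1, 2 and 3. The Plcg2+/+ libraries (blue) lie near the line of ratio 1, at 0.854 to 1.36, and the Plcg2-/- libraries (orange) at 2.04 to 3.14.

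The signal-carrying SMADs were all higher on average in Plcg2-/- libraries, and none passed. Smad2, one of the SMADs the type I receptor phosphorylates, was 21.2, 20.3 and 24.6 TPM in Plcg2+/+ 1 to 3 and 34.3, 23.1 and 35.7 TPM in Plcg2-/- 1 to 3. Plcg2-/- 1 and 3 stood above every Plcg2+/+ library and Plcg2-/- 2 did not, and without Plcg2-/- 2 Smad2 passed (log2 fold change 0.65, limma adjusted p = 0.0273). With all libraries the log2 fold change was 0.45 ± 0.18 (SE; limma adjusted p = 0.12).

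Smad4, the partner that both receptor-regulated SMADs share, was 23.9, 19.0 and 17.3 TPM in Plcg2+/+ 1 to 3 and 28.9, 22.6 and 27.5 TPM in Plcg2-/- 1 to 3. Plcg2-/- 2 lay inside the Plcg2+/+ range and the other 2 Plcg2-/- libraries above it. The span of its gene model overlaps that of AC132418.2, and how reads of the 2 were assigned was not tested. Its log2 fold change was 0.38 ± 0.16 (SE; limma adjusted p = 0.126). After median-of-ratios scaling the values of Smad2 and Smad4 came to 0.25 and 0.18 (limma adjusted p = 0.329 and 0.484).

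Smad3, the other receptor-regulated SMAD of the pathway, was scarce in these cells. It was 0.601, 0.773 and 0.469 TPM in Plcg2+/+ 1 to 3 and 0.808, 1.71 and 1.12 TPM in Plcg2-/- 1 to 3, a mean of 0.912 over the 6 libraries and so under the minimum of 1 TPM for testing. The Plcg2-/- values were all above the Plcg2+/+ values. With no filter on low values its log2 fold change was 0.44 ± 0.20 (SE; limma adjusted p = 0.278 over 26346 genes, of which 6.55% were called, 4.65% higher and 1.9% lower). Smad2 exceeded Smad3 by a ratio of 38.0 ± 13.3 in Plcg2+/+ and 29.3 ± 14.6 in Plcg2-/- (SD, n = 3 each; 35.3, 26.3 and 52.5 against 42.4, 13.5 and 32.0 by library), with overlapping groups.

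The 3 inhibitors stood lower in every Plcg2-/- library than in any Plcg2+/+ library. Smad7, the inhibitory SMAD that pathway activity itself induces, was 2.34, 1.66 and 2.75 TPM in Plcg2+/+ 1 to 3 and 0.147, 1.51 and 0.636 TPM in Plcg2-/- 1 to 3. Plcg2-/- 2 came within a narrow margin of the lowest Plcg2+/+ library, while Plcg2-/- 1 and 3 were under 1 TPM. Its log2 fold change was -0.94 ± 0.33 (SE; limma adjusted p = 0.0828), and without Plcg2-/- 2 it passed (limma adjusted p = 0.0358). At levels this low the log2(TPM + 1) scale understates the difference: with a pseudocount of 0.1 it was -1.79 (limma adjusted p = 0.108).

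Ski, a repressor that binds SMAD complexes on DNA, was 39.5, 37.5 and 40.4 TPM in Plcg2+/+ 1 to 3 and 34.2, 30.0 and 34.8 TPM in Plcg2-/- 1 to 3. Its relative Skil was 16.3, 15.3 and 17.8 TPM in Plcg2+/+ 1 to 3 and 12.1, 13.6 and 12.9 TPM in Plcg2-/- 1 to 3. In neither did the groups overlap, and the differences were small, with log2 fold changes of -0.24 ± 0.11 (SE) for Ski and -0.33 ± 0.11 for Skil, but larger than the SD of either genotype. On deposited TPM neither passed (limma adjusted p = 0.145 for Ski and 0.0782 for Skil). After median-of-ratios scaling Ski fell by 0.45 and Skil by 0.53 on the log2 scale, with limma adjusted p = 0.0189 and 0.019. Both also passed after quantile normalization (limma adjusted p = 0.0128 and 0.0195) and after rescaling without mitochondrially encoded genes (limma adjusted p = 0.0477 and 0.0344). The ratio of Ski to Skil was 2.38 ± 0.0953 in Plcg2+/+ and 2.57 ± 0.326 in Plcg2-/- (SD, n = 3 each), with overlapping groups. How reads common to related SMAD genes, or to Ski and Skil, were assigned was not tested.

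**Figure D3:**
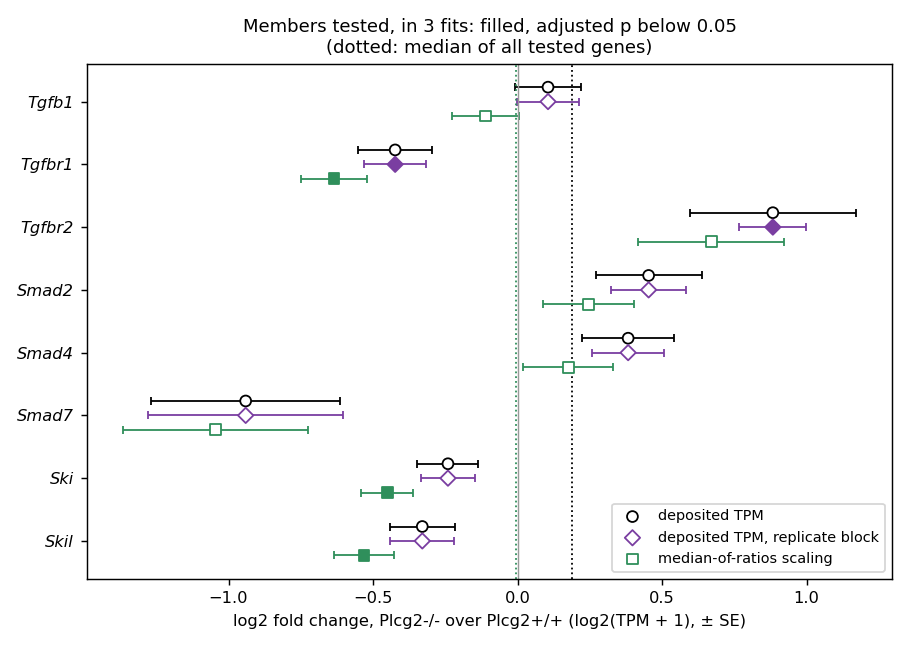
Log2 fold change (horizontal axis; Plcg2-/- against Plcg2+/+, computed from log2(TPM + 1)) with its SE for the 8 members tested, on deposited TPM (circles), with the replicate block (diamonds) and after median-of-ratios scaling (squares); filled symbols have an adjusted p below 0.05 and dotted lines are the median of all tested genes. No circle is filled, the diamonds of Tgfbr1 and Tgfbr2 are, and so are the squares of Tgfbr1, Ski and Skil.

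In Plcg2+/+ cells the order of transcript levels was Tgfb1, Tgfbr2, Tgfbr1, Ski, Smad2, Smad4, Skil, Smad7 and Smad3, from 342 to 0.614 TPM. Neighbours whose ranges over the 3 libraries overlapped were Tgfbr2 with Tgfbr1, Smad2 with Smad4, and Smad4 with Skil. In Plcg2-/- cells the order was the same except that Smad3 (1.21 TPM) stood above Smad7 (0.765 TPM), a pair whose ranges overlapped. There Ski overlapped with Smad2 and Smad2 with Smad4, and Tgfbr2 no longer overlapped with Tgfbr1. Over the 6 libraries, the gene whose log2(TPM + 1) followed a member most closely, among 8682 or 8683 genes with a mean of at least 5 TPM, was Cul4b for Tgfbr2 (Pearson r = 0.9996), Pald1 for Skil (0.998), Ak3 for Smad2 (0.996), Ddx5 for Smad4 (0.995), Slc35a1 for Tgfbr1 (0.995), Trim8 for Smad3 (0.993), Mcoln1 for Smad7 (0.992), Bhlhe40 for Ski (0.991) and Lrrc14 for Tgfb1 (0.985). These are the best of many candidates over 6 points that share 2 genotypes and are a description with no test.

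Around the members, 7 genes that store or activate the ligand or encode its relatives changed. Of 26 listed ligand, latency and activation genes, 13 were tested; 2 rose and 5 fell at a limma adjusted p below 0.05 (over all genes tested 15.6% rose and 5.31% fell), with a median log2 fold change of -0.23 against 0.19 for all genes. The transcripts of the 2 proteins that tether latent TGF-beta to the cell surface went opposite ways. Nrros, the gene of the tether NRROS, was 92.7, 94.0 and 94.7 TPM in Plcg2+/+ 1 to 3 and 214, 185 and 189 TPM in Plcg2-/- 1 to 3. The Plcg2+/+ libraries were nearly equal, each Plcg2-/- library was higher, and Nrros rose from 93.8 ± 1.04 to 196 ± 15.4 TPM (SD, n = 3 each; limma adjusted p = 0.00148). Lrrc32, which encodes GARP, the tether known from regulatory T cells and platelets, was 10.5, 19.8 and 5.19 TPM in Plcg2+/+ 1 to 3 and 0.0373, 0.241 and 0.0533 TPM in Plcg2-/- 1 to 3. It varied widely among Plcg2+/+ libraries and was near 0 in each Plcg2-/- library, and it fell, with a log2 fold change of -3.36 ± 0.41 (SE) and a limma adjusted p of 0.00325. That size depends on the pseudocount, and with 0.1 it was -5.75 (limma adjusted p = 0.00166).

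Ltbp3, a matrix protein that binds the latent complex and whose gene model overlaps another, fell from 12.2 ± 6.78 to 1.87 ± 0.638 TPM (limma adjusted p = 0.0116). It lost the call without Plcg2-/- 1 and without Plcg2-/- 3 (limma adjusted p = 0.063 and 0.0514). Itgav, the integrin alpha chain of the receptors that free the ligand, fell from 80.2 ± 16.9 to 29.9 ± 5.53 TPM, and its partner chain Itgb3 from 9.85 ± 5.48 to 2.57 ± 1.14 TPM (SD, n = 3 each; limma adjusted p = 0.00556 and 0.0492). Itgb3 lost its call under 10 of 17 other settings, among them leaving out any library except Plcg2+/+ 3. Itgb5, another partner chain, averaged 163 ± 50.1 TPM (Plcg2+/+) and 82.8 ± 29.4 TPM (Plcg2-/-) (limma adjusted p = 0.0594, and 0.00838 under the replicate block). Itgb8, the chain best known for activating TGF-beta in the brain, was at 0.166 ± 0.0872 and 0.169 ± 0.0776 TPM, too low to test.

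Of the ligands of related receptors, Inhba, the activin A subunit, was 14.8, 8.48 and 18.9 TPM in Plcg2+/+ 1 to 3 and 0.965, 1.57 and 1.37 TPM in Plcg2-/- 1 to 3. All Plcg2-/- values were far below the Plcg2+/+ ones, and Inhba fell, with a log2 fold change of -2.65 ± 0.28 (SE) and a limma adjusted p of 0.00188. Gdf15, a stress-induced distant relative, rose from 30.4 ± 9.95 to 65.1 ± 3.05 TPM (SD, n = 3 each; limma adjusted p = 0.0188, but 0.0575 with the Y-linked covariate and above 0.05 without Plcg2+/+ 1 or any 1 Plcg2-/- library). Furin, the protease that cleaves the ligand precursor, averaged 53.5 ± 11.3 TPM (Plcg2+/+) and 79.1 ± 14.3 TPM (Plcg2-/-) (limma adjusted p = 0.0815, and 0.0155 under the replicate block), and Thbs1, an extracellular activator, averaged 1.91 ± 1.07 TPM (Plcg2+/+) and 4.10 ± 1.62 TPM (Plcg2-/-) (limma adjusted p = 0.109, and 0.0215 under the block). Nrros, Lrrc32, Itgav and Inhba kept their calls in each of the 17 other settings, and the plot of latency genes gives their values by library.

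**Figure D4:**
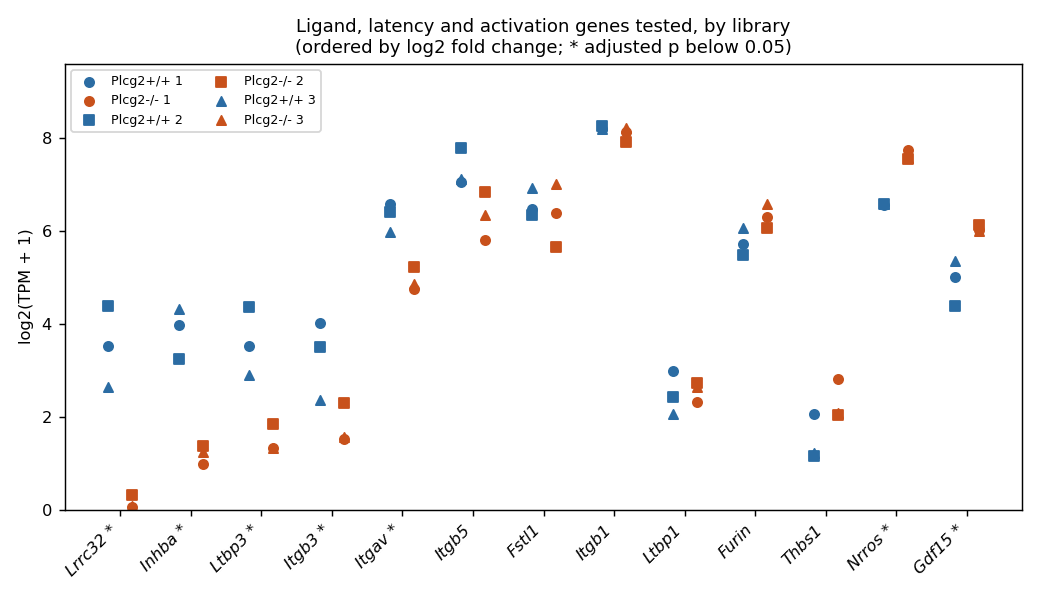
log2(TPM + 1) (vertical axis) of the 13 ligand, latency and activation genes tested, ordered by log2 fold change, in Plcg2+/+ (blue) and Plcg2-/- (orange) libraries, with symbols for the replicate number and * for an adjusted p below 0.05. Lrrc32 and Inhba at the left are near 0 and near 1 in Plcg2-/- libraries, and Nrros and Gdf15 at the right are higher in each Plcg2-/- library.

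Other receptors, other SMADs and their ubiquitin ligases showed few changes. Over all genes tested 20.9% were called (15.6% higher and 5.31% lower), and 37.6% had an unadjusted limma p below 0.05. Of 13 other receptors and co-receptors 9 were tested and 0 called (limma; 1 had an unadjusted p below 0.05), the lowest limma adjusted p being 0.0649 for Fkbp1a, which guards the type I receptor and averaged 94.8 ± 10.7 TPM (Plcg2+/+) and 124 ± 8.70 TPM (Plcg2-/-); with the replicate block it was 0.0484. Acvrl1, a type I receptor of the same family, averaged 34.1 ± 4.83 TPM (Plcg2+/+) and 33.0 ± 3.87 TPM (Plcg2-/-). The co-receptor Tgfbr3 was at 0.0453 ± 0.0285 and 0.0304 ± 0.0137 TPM and was not tested. Smad1 and Smad5, which serve the bone morphogenetic protein branch, were the 2 tested of 4 other SMADs, with limma adjusted p = 0.123 and 0.259; 1 of them had an unadjusted p below 0.05. Smad1 averaged 6.65 ± 0.194 TPM (Plcg2+/+) and 8.44 ± 0.832 TPM (Plcg2-/-). Of 17 anchors, ligases, deubiquitinases and the phosphatase, 1 rose: Wwp1, a ubiquitin ligase, from 29.1 ± 6.62 to 47.4 ± 4.07 TPM (SD, n = 3 each; limma adjusted p = 0.0337). That call ended after median-of-ratios scaling (limma adjusted p = 0.0777), with the Y-linked covariate (0.0907) and without any 1 library except Plcg2+/+ 1. Ppm1a, a phosphatase of the receptor-regulated SMADs, passed only with the replicate block among 17 other settings (limma adjusted p = 0.0608 without and 0.0424 with it).

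Of 14 genes of nuclear SMAD partners, 11 were tested, 7 rose and 0 fell on deposited TPM (over all genes tested 15.6% rose and 5.31% fell), with a median log2 fold change of 0.48 against 0.19. The coactivator Ep300, an acetyltransferase, rose from 18.5 ± 1.71 to 30.2 ± 3.13 TPM and the coregulator Snw1 from 36.3 ± 3.74 to 58.7 ± 8.15 TPM (SD, n = 3 each; limma adjusted p = 0.013 and 0.0184). Corepressor genes also rose, Ncor1 and Hdac1 by 0.50 and 0.42 on the log2 scale, and the transcription factor genes Runx1, Zeb1 and Zeb2 by 0.49, 0.97 and 0.48 (limma adjusted p = 0.0147, 0.0277, 0.0328, 0.0242 and 0.0213). After median-of-ratios scaling Ep300 (0.0378) and Zeb1 (0.046) kept a limma adjusted p below 0.05 and the other 5 did not. With the Y-linked covariate Ep300 kept its call (0.0465) and the other 6 lost theirs; Ep300 itself lost it without Plcg2-/- 1 (0.0613). Leaving out 1 library also ended the call of Snw1 (Plcg2+/+ 2 or Plcg2-/- 1), Ncor1 (Plcg2+/+ 1 or Plcg2-/- 3), Zeb1 (Plcg2+/+ 1, Plcg2+/+ 2 or Plcg2-/- 3), Zeb2 (Plcg2+/+ 1, Plcg2-/- 1 or Plcg2-/- 3), Hdac1 (any but Plcg2+/+ 3 and Plcg2-/- 2) and Runx1 (any but Plcg2-/- 2), with limma adjusted p-values of at most 0.0703, 0.0575, 0.0738, 0.0777, 0.0934 and 0.121. The corepressor Tgif1 averaged 79.2 ± 8.58 TPM (Plcg2+/+) and 60.9 ± 3.40 TPM (Plcg2-/-) (limma adjusted p = 0.0667, 0.0461 under the replicate block and 0.0308 after median-of-ratios scaling). In the SMAD-independent branch, 2 of 6 tested genes rose and 0 fell, beside 15.6% and 5.31% of all genes tested. The adaptor Tab2 rose by 0.42 and the kinase p38 alpha, Mapk14, by 0.75 (limma adjusted p = 0.0287 and 0.0304). Both lost the call after median-of-ratios scaling (limma adjusted p = 0.212 and 0.0613) and with the Y-linked covariate (0.071 and 0.0842). Tab2 also lost it when any 1 library but Plcg2-/- 2 was left out (limma adjusted p at most 0.107). Mapk14 lost it without Plcg2+/+ 1 or any 1 Plcg2-/- library (limma adjusted p at most 0.12).

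Of 15 genes listed as induced by TGF-beta, 9 were tested, and whether TGF-beta raises or lowers them in these cells was not tested. Of the 9, 2 fell and 0 rose, beside 5.31% lower and 15.6% higher over all genes tested. Only with both directions pooled was the share called near the 20.9% of all genes. Bhlhe40, a transcriptional repressor and the gene most like Ski in pattern, fell from 62.5 ± 7.58 to 31.6 ± 10.2 TPM, and Id2, an inhibitor of helix-loop-helix factors, from 216 ± 14.4 to 149.9 ± 22.2 TPM (SD, n = 3 each; limma adjusted p = 0.0288 and 0.0376). With the Y-linked covariate both lost the call (0.0792 and 0.0727), and so did Bhlhe40 without any 1 Plcg2+/+ library or Plcg2-/- 1 and Id2 without any library but Plcg2-/- 2 (limma adjusted p over the 6 fits 0.0315 to 0.0948 and 0.04 to 0.107). Cdkn1a, a cell cycle inhibitor, averaged 71.3 ± 13.1 TPM (Plcg2+/+) and 127 ± 35.5 TPM (Plcg2-/-) (limma adjusted p = 0.0507, and 0.0188 under the replicate block). Tgfbi, a secreted matrix protein, averaged 222 ± 77.3 TPM (Plcg2+/+) and 281 ± 39.8 TPM (Plcg2-/-) (limma adjusted p = 0.304).

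Microglial genes known to need TGF-beta moved both ways. Of 12 listed, 8 were tested, 3 rose and 2 fell (over all genes tested 15.6% rose and 5.31% fell). Fcrls, an Fc receptor-like gene of resident microglia, rose from 2.80 ± 0.493 to 37.3 ± 14.1 TPM, and the purinergic receptor genes P2ry13 and P2ry12 rose from 28.5 ± 13.6 to 137 ± 5.62 TPM and from 5.68 ± 3.55 to 23.8 ± 4.46 TPM (SD, n = 3 each; limma adjusted p = 0.000922, 0.00512 and 0.0166). Olfml3, a secreted microglial protein, fell from 18.6 ± 11.6 to 1.03 ± 0.799 TPM, and the fractalkine receptor gene Cx3cr1, already low, from 2.06 ± 0.803 to 0.244 ± 0.145 TPM (SD, n = 3 each; limma adjusted p = 0.00688 and 0.0203). Fcrls, P2ry13 and Olfml3 kept their calls in each of the 17 other settings; P2ry12 lost it without Plcg2+/+ 1, Plcg2-/- 1 or Plcg2-/- 3 (limma adjusted p up to 0.0786), as did Cx3cr1 (up to 0.0679), which also lost it with the Y-linked covariate (0.0536). Gpr34, a receptor gene, did not pass (limma adjusted p = 0.118), and with the replicate block it did, higher in Plcg2-/- (0.0173).

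Over the 8 lists together, 75 of 108 genes were tested, 15 rose and 9 fell (over all genes tested 15.6% rose and 5.31% fell), with a median log2 fold change of 0.20, beside 0.19 for all genes. Of the 24 calls, 15 remained after median-of-ratios scaling, 11 with the Y-linked covariate and 7 in every one of the 17 other settings: Nrros, Fcrls and P2ry13, which rose, and Lrrc32, Inhba, Itgav and Olfml3, which fell. The plot of fold changes by list sets these genes beside the members.

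**Figure D5:**
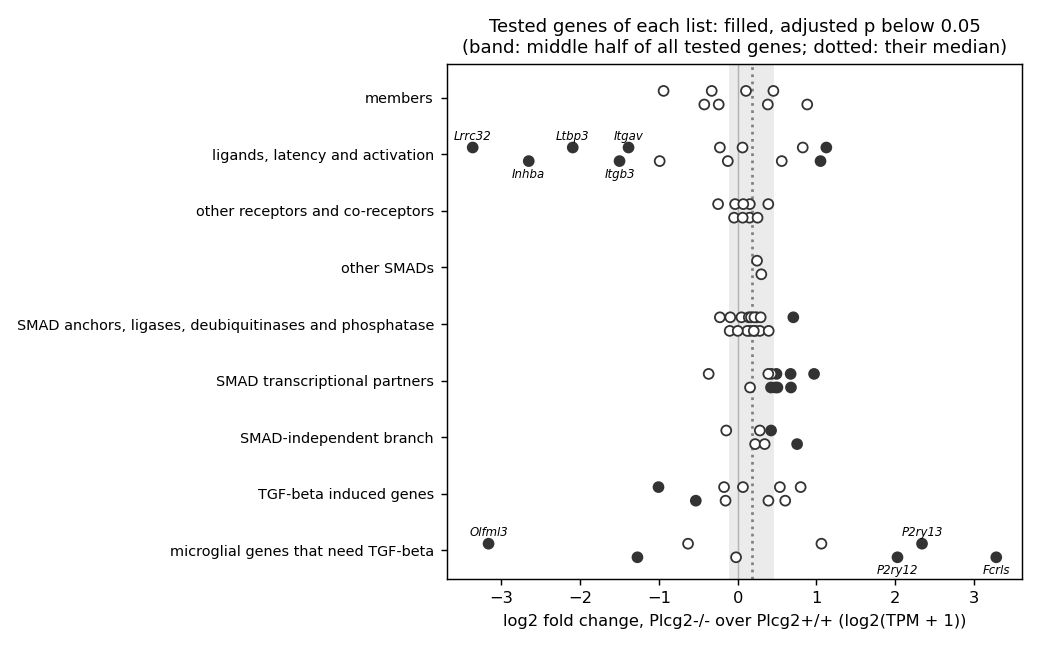
Log2 fold change on the log2(TPM + 1) scale (horizontal axis) of each tested gene in the members' list and the 8 wider lists; filled circles have an adjusted p below 0.05, the grey band spans the middle 50% of all tested genes and the dotted line is their median of 0.19. Filled circles lie on both sides for the latency list and the microglial list and at the right for the SMAD partners, and no member is filled.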

How the data were processed

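RNA of 6 microglial libraries was measured, 3 per genotype, from polyA-selected libraries read as 150-bp paired ends, per the labels' protocols, which give 1 target depth for all samples and no depth per library. The authors deposited TPM per gene, with 1 column per sample, each summing to 1000000. Salmon 1.3.0, DESeq2 1.30.1, R 4.0.4 and the build GRCm38.p6 are named in the submitters' processing notes, with the annotation release and the steps to TPM not given in the sources used here. Titles give each sample its genotype and number.

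Values were tested as log2(TPM + 1), without further scaling, in limma 3.58.1 (R 4.3.3; two-sided, prior variance following the mean, 4 residual degrees of freedom) over the 12652 genes with a mean of at least 1 TPM; p-values were adjusted by Benjamini-Hochberg over all of them, with a threshold of 0.05. The test was checked on simulated data. Sums of markers and shares of TPM were compared by two-sided exact permutation tests. The members and lists were chosen with earlier results of these data known. Named genes are all members, wider-list genes with an adjusted p below 0.05, the most abundant gene of a list with none, the gene most like each member, and Plcg2; others named were chosen after their values were seen, and some listed genes are not reported here. Settings tried beside these were pseudocounts of 0.1 and 0.5, no filter, a minimum of 5 TPM, 3 other scalings, a constant prior variance, the replicate block with and without median-of-ratios scaling, leaving out each library, and a Y-linked covariate. Positions and gene types are from GENCODE M21 (GRCm38), in which the versioned identifiers of all 9 members were found. Python 3.11.15, pandas 2.3.3 and matplotlib 3.10.9 were used for tables and plots.

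Replicate numbers 1 to 3 occur in both genotypes, in the titles. Same-numbered libraries deviated together from their genotype's mean (r across tested genes 0.295, 0.193 and 0.147, against a limit of 0.1), which was read as a pairing of the samples. Each numbered pair was unlike in summed Y-linked transcripts, at 0.371 (Plcg2+/+) and 58.6 TPM (Plcg2-/-) for number 1. For numbers 2 and 3 the sums were 107 and 0.783, and 112 and 0.994 TPM. No fit held both the block and the Y-linked covariate. The main comparison has no block, since no label says what a number marks.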

Additional observations from a re-analysis of the deposited data

How the results depend on the processing

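Leaving out 1 library at a time gave 0 to 2 members called higher and 0 to 1 lower, with the calls made only without Plcg2-/- 2. Counts over all genes, 1971 higher and 672 lower in the main comparison, were 559 to 2106 higher and 276 to 644 lower without 1 library, and the wider lists 5 to 13 higher and 4 to 9 lower against 15 and 9. With the replicate number as a block 1 member was higher and 1 lower and the wider lists gave 22 and 12, and with the block and median-of-ratios scaling together 1 and 3, with 1104 genes higher and 1127 lower over all. Median-of-ratios scaling gave 3 members lower, 975 genes higher and 993 lower over all, and 7 wider-list genes higher. Quantile normalization gave 3 members lower, 967 and 1029 genes over all, and 7 and 14 wider-list genes. Rescaling without mitochondrially encoded genes gave 3 members lower and 1223 genes higher over all, no filter 1226 higher over all, and a minimum mean of 5 TPM 1 member lower, where fewer genes were tested. The Y-linked covariate, added after seeing the data, gave 941 and 411 genes over all, 0 members, and 5 wider-list genes higher. The median log2 fold change of the tested members was -0.28 after median-of-ratios scaling, with or without the block, -0.31 after quantile normalization and 0.11 with no filter or a minimum of 5 TPM, against -0.07. Of the 8 tested members Tgfb1 alone changed direction, over 17 settings for each but Smad7, which was not tested at a minimum of 5 TPM. Apart from these scalings, whose construction moves every gene, the cause of each change was not tested. Depth is unknown, which limits Smad3 and the Plcg2-/- values of Smad7 and Lrrc32, which are near 0.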

Other observations

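Across libraries of the same genotype, some of these genes ordered the replicates in opposite ways. In Plcg2+/+ libraries 1, 2 and 3, Lrrc32 was 10.5, 19.8 and 5.19 TPM, Ltbp3 10.4, 19.7 and 6.44 and Olfml3 16.9, 31.0 and 8.02, each highest in library 2 and lowest in library 3. Tgfbr2 was 62.0, 44.5 and 71.3 TPM in the same libraries, Inhba 14.8, 8.48 and 18.9, P2ry12 5.56, 2.20 and 9.29 and Gpr34 4.54, 1.59 and 6.14, each lowest in library 2 and highest in library 3. In Plcg2-/- libraries, library 2 was again the highest for Lrrc32, Ltbp3 and Olfml3, at 0.241, 2.60 and 1.93 TPM, and the lowest for Tgfbr2, P2ry12 and Gpr34, at 71.1, 18.9 and 5.39 TPM. Inhba did not follow there, with its highest Plcg2-/- value, 1.57 TPM, in library 2. The complement gene C1qa, a macrophage marker, was 609.8, 858 and 368 TPM in Plcg2+/+ and 1174, 2174 and 866 TPM in Plcg2-/- libraries, highest in library 2 of both genotypes. These genes were chosen after their values were seen, and no test was made of the order.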
